A study of Mus musculus with 34 samples.

Results

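The urea cycle and amino acid breakdown genes described here are Cps1, Otc, Ass1, Asl, Arg1, Nags, Glul, Gls2, Tat and Sds, 10 genes chosen by name. A probe was assigned to a gene where the RefSeq accession printed for it in the array file belongs to that gene. Of the 41174 non-control probes on the array, 11 probes matched 9 of the 10 genes, out of 16535 genes matched in all. Glul and Otc had 2 probes each, every other matched gene had 1, and no probe matched Cps1, which is therefore only named.

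RNA was measured in the livers of 34 juvenile C57BL/6 pups, 17 males and 17 females, all at postnatal day 15. Each array carried the liver RNA of 1 pup in the Cy5 channel and a universal mouse reference RNA in the Cy3 channel, without dye swaps. Control pups (4 males, 4 females) were injected with saline 4 h before collection. Hypo pups (4 males, 5 females) were nursed for 3 days by dams drinking 0.05% methimazole and 1% perchlorate, drugs against hormone synthesis and iodide uptake in the thyroid, and were injected with saline. Hyper pups (5 males, 5 females) had no goitrogen and were injected i.p. with 50 µg T4 and 5 µg T3 per 100 g body weight. Hypo+ pups (4 males, 3 females) had the goitrogens of the hypo group and a replacement injection of 20 µg T4 and 2 µg T3 per 100 g. Every pup thus had an injection, of saline or of hormone, and the pups of the hypo and hypo+ groups also had the goitrogens through the dam. In the paper, pups of the hypo+ treatment were divided by their measured serum T4. Those with T4 near the level of hyper pups formed a group of males only that was not put on arrays. The question of each comparison was whether a gene's RNA differed with the thyroid state of the pup, within 1 sex. Pups are named by treatment, sex and animal number.

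Urea is made in the liver from ammonia and from the nitrogen of aspartate. Cps1 and Otc act in the mitochondria, where Cps1 forms carbamoyl phosphate and needs the N-acetylglutamate that Nags makes, and Otc joins carbamoyl phosphate to ornithine. Ass1, Asl and Arg1 act in the cytosol and form argininosuccinate, arginine and fumarate, and finally urea with ornithine. These enzymes and the glutaminase Gls2, which frees ammonia from glutamine, are typical of periportal hepatocytes. Glul, glutamine synthetase, binds the ammonia that is left and is known for its restriction to a narrow rim of hepatocytes around the central vein. Tat and Sds start the breakdown of tyrosine and of serine, and are known as genes induced by glucocorticoids and glucagon.

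The upstream sequences of Glul and Nags are shown because Glul had the lowest adjusted p of the members in hypo pups and because these were the only members, of 5 with a promoter in the RefSeq table, that held AGGTCA, the half-site of thyroid hormone and other nuclear receptors. Each run is the 250 bases before the annotated start in GRCm38.p6, 5′ to 3′ on the gene's strand, with the half-site in capitals.
Glul, chr1:153899679-153899928, plus strand: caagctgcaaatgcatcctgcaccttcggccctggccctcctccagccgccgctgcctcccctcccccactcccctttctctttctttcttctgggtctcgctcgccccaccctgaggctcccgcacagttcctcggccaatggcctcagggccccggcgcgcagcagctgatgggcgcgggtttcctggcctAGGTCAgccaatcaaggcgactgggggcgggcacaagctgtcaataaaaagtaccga
Nags, chr11:102145263-102145512, plus strand: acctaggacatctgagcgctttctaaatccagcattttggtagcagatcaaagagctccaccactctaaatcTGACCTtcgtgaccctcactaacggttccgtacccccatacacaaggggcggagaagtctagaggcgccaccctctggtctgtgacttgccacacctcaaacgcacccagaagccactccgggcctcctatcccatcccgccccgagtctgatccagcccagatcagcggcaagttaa
The Glul match ran from base -57 to base -52 relative to the start and the Nags match, which reads TGACCT and lies on the other strand, from base -178 to base -173. On either strand, 14.0% of the 32851 promoters of the same length held the half-site. A direct repeat of AGGTCA with a spacer of 4 bases was in none of the 5 members' promoters (Glul, Nags, Otc, Ass1 and Tat) and in 0.0152% of all promoters. Such a match is a description of the letters, and binding was not measured on these arrays.

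All 11 probes were well above background on 34 of 34 arrays in both channels, and none was saturated. Expressed as the log2 ratio of liver over reference RNA, medians over the 34 arrays ran from 2.58 for the dimmer Glul probe to 7.06 for the brighter Otc probe. A ratio depends on how much of the RNA the reference holds, so these levels do not order the genes by abundance. The 2 probes of Glul are A_52_P101279, with liver signals of 9954 to 28452, and A_52_P143866, with 465 to 1282. Those of Otc are A_52_P286360, with 10945 to 33087, and A_51_P126563, with 2895 to 9771. They are called the brighter and the dimmer probe below. Median array signals ranged from 146 to 199 in Cy5 and 64 to 100 in Cy3. The reference signals of the dimmer Glul probe were 66 to 116, those of the brighter Otc probe 47 to 137 and those of the dimmer Otc probe 64 to 149. These lay about the median Cy3 signal of the arrays, and no background was subtracted before the ratios were taken. The ratios of these 3 probes thus rest on a weak reference signal. The 6 hepatocyte markers (Alb, Ttr, Apoa1, Apoc3, Serpinc1 and Fgb) were well above background on every array, as the tissue label says. In whole liver, fewer cells of a type and less RNA per cell cannot be told apart.

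Arrays differed in 2 ways that the groups do not describe. The 8 arrays of 1 scan batch, 1 in each group, had the highest hepatocyte marker means, 5.56 to 5.89 against 4.26 to 5.13 on the other 26 arrays. A set of 4 arrays carried RNA of digestive enzymes of the pancreas, with a mean log2 ratio over 6 acinar markers of 2.45 to 5.10 against 0.61 to 0.97 on the other 30. These were control males 522 and 832, control female 831 and hypo+ female 543. Of these, 832, 831 and 543 also belong to the scan batch apart.

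No member probe passed an adjusted p of 0.05 in any of the 8 comparisons of treatment within sex by limma with Benjamini-Hochberg adjustment over all 41174 probes. In hypo males against control males 0 of 11 passed, where 0.0971% of all probes did, and in hypo females 0 of 11, against 0.155%. In the hyper groups 0 of 11 passed in either sex, against 0.0753% in males and 0.158% in females, and in hypo+ against control again 0 of 11, against 0.0267% and 0.0219%. In hypo+ against hypo, the comparison with the most calls, 0 of 11 passed against 0.369% in males and 0.556% in females. At an unadjusted p below 0.05 in limma the members gave 2 probes in hypo males (5.18% of all probes), 2 in hypo+ males (7.56%), 2 in hypo females (4.72%), 1 in hyper females (6.16%) and 2 in hypo+ against hypo females (7.75%). None did in hyper males (2.97%), in hypo+ females (4.79%) or in hypo+ against hypo males (9.18%). All of these were Glul or Tat. So few probes were called on the whole array that 0 of 11 is not a result about these genes.

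Glul stood apart from the other members in hypo pups. The dimmer probe read 2.29, 2.84, 2.88 and 2.93 in control males (mean 2.74 ± 0.30, SD, n = 4) and 1.93, 2.04, 2.07 and 2.27 in hypo males (2.08 ± 0.14, n = 4). Every hypo male lay below every control male, and the closest pair were control male 881 and hypo male 576. The log2 fold-change was -0.66 (SE 0.16, 95% confidence interval -1.0 to -0.32, limma adjusted p = 0.238), or 0.634 of the control level. Groups of males that did not overlap, with hypo lower, were found for 1 of 11 member probes and for 1.6% of all probes.

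In females the same probe read 2.56, 2.86, 2.88 and 3.03 in controls (2.83 ± 0.20, n = 4) and 1.92, 2.23, 2.28, 2.47 and 2.73 in hypo pups (2.33 ± 0.30, n = 5). The groups overlapped through hypo female 575, the highest of its group, and control female 394, the lowest. The log2 fold-change was -0.51 (SE 0.15, interval -0.83 to -0.18, limma adjusted p = 0.446).

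The brighter Glul probe gave a clear separation in females and none in males. It read 4.17, 4.29, 4.29 and 4.35 in control females (4.27 ± 0.08, n = 4) and 3.45, 3.68, 3.91, 3.96 and 3.99 in hypo females (3.80 ± 0.23, n = 5). All 5 hypo females were below all 4 controls, as for 0.928% of all probes with hypo lower. Their log2 fold-change was -0.47 (SE 0.12, interval -0.72 to -0.22, limma adjusted p = 0.207), or 0.72 of the control level. In males it read 3.68, 3.98, 4.11 and 4.33 in controls and 3.51, 3.58, 3.85 and 4.44 in hypo pups. The hypo males spanned the whole control range, because pup 576 was the highest of these 8 males and pups 723 and 311 the lowest. The log2 fold-change was -0.18 (SE 0.22, interval -0.65 to 0.29, limma adjusted p = 1.00). The 2 probes, assigned to the same gene, thus gave unlike values in hypo males.

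**Figure D1:**
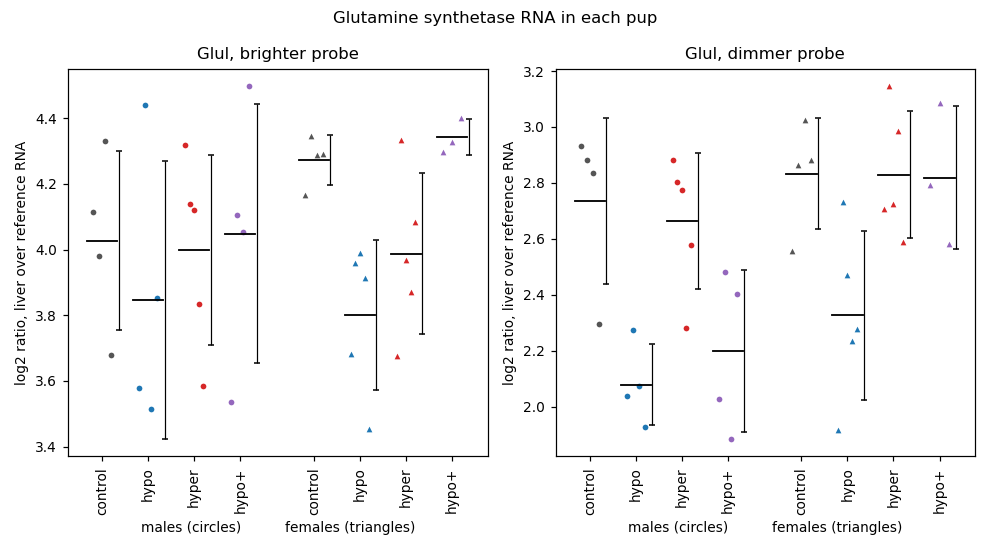
Log2 ratio of liver over reference RNA (y axis) for the 2 Glul probes in each of the 34 pups, by treatment, males as circles and females as triangles. Horizontal lines are group means and bars 1 SD. For the dimmer probe all 4 hypo males lie between 1.93 and 2.27, under the lowest control male at 2.29, and for the brighter probe all 5 hypo females lie under the lowest control female at 4.17.

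When both sexes were fitted together with sex as an additive term, the dimmer Glul probe fell in hypo pups by 0.58 on the log2 scale (SE 0.12, 95% confidence interval -0.83 to -0.34, limma adjusted p = 0.00519), and it was the only member probe called, where 1.28% of all probes were. The fall was also called with litter, read from the first digits of the pup number, as a random block (-0.58, SE 0.13, adjusted p = 0.0101), where 1.01% of all probes were, and with slide as a fixed block (-0.52, SE 0.08, adjusted p = 0.000939), where 1.88% were. The joint fit with slide was chosen after the data were seen. In females alone it was called with slide as a fixed block (-0.43, SE 0.08, adjusted p = 0.0446, 0.323% of all probes) and not in the other settings of that sex alone. The brighter probe in the joint fit gave -0.33 (SE 0.13, interval -0.60 to -0.07, limma adjusted p = 0.303). Over the 17 alternative settings, the dimmer probe had an adjusted p of 0.000939 to 1.00 in either sex. Its log2 fold-change stayed between -0.69 and -0.52 for the males, and for the females between -0.58 and -0.30. These ranges count the joint fits for each sex, though they hold 1 value for both sexes. The p of 0.000939 and the ends -0.52 and -0.58 are values that joint fits gave. Within scan batches that held both groups, the dimmer probe was lower in the hypo pups in 3 of 3 batches for males (-0.84 to -0.37) and 4 of 4 for females (-0.63 to -0.15), each with 1 pup a side.

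Control males 522 and 832, with 2.88 and 2.84 on the dimmer probe, were among the arrays with acinar RNA. Without the 4 such arrays, which leaves 2 control males, the dimmer probe gave -0.53 in hypo males (SE 0.20, limma adjusted p = 0.981) and -0.44 in hypo females (SE 0.17, adjusted p = 0.889). Without the 8 arrays of the scan batch described above it gave -0.69 (SE 0.16, adjusted p = 0.307) and -0.48 (SE 0.17, adjusted p = 0.666). With the hepatocyte marker mean as a covariate it gave -0.66 (SE 0.17, adjusted p = 0.313) and -0.48 (SE 0.15, adjusted p = 0.419). Like the joint fit with slide, these 3 settings were chosen after the data were seen, and in none of these 3 was Glul called. The neutrophil and granulocyte markers were higher in hypo than in control pups in 6 of 6 genes in males (median 0.18) and 5 of 6 in females (median 0.37), none of them called, and their part in the Glul values was not tested.

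In hypo+ females the brighter probe read 4.30, 4.33 and 4.40 (4.34 ± 0.05, n = 3), above all 5 hypo females, beside a control mean of 4.27. Against hypo females the log2 fold-change was 0.54 (SE 0.13, interval 0.27 to 0.81, limma adjusted p = 0.0803), a 1.46-fold higher level, with groups that did not overlap as for 2.36% of all probes with hypo+ higher. It was called without hyper female 585, whose group shares the estimate of spread (SE 0.11, limma adjusted p = 0.0401, 0.576% of all probes), and over all arrays left out in turn its adjusted p was 0.0401 to 0.264. In the same comparison the hepatocyte markers were higher in 6 of 6 genes (median 0.27), the pericentral genes in 9 of 10 (median 0.28) and the acinar markers in 6 of 6 (median 0.50), none of them called. With the hepatocyte marker mean as a covariate the brighter Glul probe gave 0.45 (SE 0.10, limma adjusted p = 0.0636), and without the 4 arrays with acinar RNA 0.56 (SE 0.16, adjusted p = 0.182). The dimmer probe read 2.58, 2.79 and 3.09 (2.82 ± 0.25) in hypo+ females, a log2 fold-change of 0.49 against hypo females (SE 0.17, interval 0.14 to 0.85, limma adjusted p = 0.323). In hypo+ males the dimmer probe read 1.89, 2.03, 2.40 and 2.48 (2.20 ± 0.29, n = 4), which spans the hypo males. Its log2 fold-change was 0.12 against hypo (SE 0.16, interval -0.22 to 0.46, adjusted p = 0.898) and -0.54 against control males (SE 0.16, interval -0.88 to -0.20, limma adjusted p = 0.411). The brighter probe in hypo+ males read 3.54, 4.05, 4.11 and 4.50, a log2 fold-change of 0.20 against hypo males (interval -0.27 to 0.67, limma adjusted p = 0.863). Comparisons with hypo+ share the hypo or the control pups with the comparison of hypo and control, so they are not separate evidence on those pups. The difference between the sexes in the hypo+ response of the dimmer probe was 0.52 (females minus males, SE 0.25, interval 0.02 to 1.03), with an adjusted p of 1.00 in limma, and no probe of 41174 passed in that test, while 546 had an unadjusted p below 0.05. Male pups with high serum T4 were set apart from the hypo+ group, as given above, and the part of that selection was not tested.

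In hyper pups the Glul values overlapped those of controls on both probes. The dimmer probe read 2.28, 2.58, 2.78, 2.80 and 2.88 in hyper males (2.66 ± 0.24, n = 5) and 2.59, 2.71, 2.72, 2.98 and 3.15 in hyper females (2.83 ± 0.23, n = 5). The log2 fold-changes against control were -0.07 (interval -0.40 to 0.25) and -0.00 (interval -0.33 to 0.32), both with a limma adjusted p of 1.00. The brighter probe gave -0.03 in males (interval -0.47 to 0.42) and -0.29 in females (interval -0.54 to -0.04, unadjusted p = 0.0272 and adjusted p = 0.723 in limma, with groups that overlapped). The injection of 50 µg T4 with 5 µg T3 was larger than the 20 µg and 2 µg of the hypo+ group.

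Of the urea cycle enzymes proper, none passed in any comparison, and all their groups overlapped. Nags read 3.85 ± 0.38 in control males (n = 4) and 3.90 ± 0.33 in hypo males (n = 4), and 4.00 ± 0.25 in control females (n = 4) and 3.87 ± 0.17 in hypo females (n = 5). The log2 fold-changes were 0.05 (interval -0.35 to 0.45) and -0.12 (interval -0.41 to 0.16). The Nags pups of highest value were 832, 576, 784 and 546 in the males and 831, 721, 585 and 543 in the females, which are the 8 pups of 1 scan batch.

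Otc, the X-linked transcarbamylase, had the highest ratios of the members on its brighter probe. That probe read 6.70, 6.82, 6.89 and 7.95 in control males, 6.72, 6.88, 7.00 and 8.10 in hypo males, 6.75, 6.95, 7.03, 7.11 and 7.88 in hyper males and 6.70, 6.95, 7.24 and 7.75 in hypo+ males. The highest of each of these groups, pups 832, 576, 784 and 546, was the pup of the scan batch described above. The log2 fold-change in hypo pups was 0.08 in males (interval -0.62 to 0.78) and -0.19 in females (interval -0.76 to 0.38), and these were the widest intervals of the 11 probes in hypo pups. The dimmer Otc probe gave 0.12 (interval -0.34 to 0.58) and -0.06 (interval -0.41 to 0.29).

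Ass1, which forms argininosuccinate, gave log2 fold-changes in hypo pups of 0.16 in males (interval -0.36 to 0.67) and -0.11 in females (interval -0.46 to 0.25). Asl, which splits argininosuccinate, gave 0.18 (interval -0.11 to 0.46) and 0.03 (interval -0.29 to 0.35). Arginase, Arg1, gave 0.14 (interval -0.35 to 0.63) and -0.09 (interval -0.49 to 0.32). All 6 intervals lay within 1 log2 unit of 0 and held 0. In hyper pups Ass1 gave 0.01 in males (interval -0.47 to 0.50) and -0.14 in females (interval -0.49 to 0.22), Asl -0.05 (interval -0.32 to 0.22) and -0.16 (interval -0.48 to 0.16), and Arg1 -0.04 (interval -0.50 to 0.43) and -0.16 (interval -0.57 to 0.25).

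Asl was the only member besides Glul that was called in any setting. In hypo+ against hypo it read 3.45 ± 0.12 against 3.59 ± 0.21 in males and 3.54 ± 0.38 against 3.56 ± 0.15 in females, with log2 fold-changes of -0.15 (SE 0.13, limma adjusted p = 0.817) and -0.02 (SE 0.16, adjusted p = 0.998). With both sexes and slide as a fixed block it was -0.28 (SE 0.07, limma adjusted p = 0.0230), where 2.86% of all probes were called. No other of the 17 settings called it, with adjusted p from 0.0230 to 1.00, and this setting was chosen after the data were seen.

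Among the members Tat, Gls2 and Sds, Tat had the largest difference in hypo males. It read 4.50, 4.67 and 4.92 in 3 control males, since the spot of control male 522 was marked as an outlier by the scanner software and left out, and 4.83, 4.92, 5.08 and 5.33 in hypo males. The groups overlapped through control male 832. The log2 fold-change was 0.34 (SE 0.14, interval 0.05 to 0.64), with an unadjusted p of 0.0231 and an adjusted p of 0.800 in limma. In hypo females it was -0.01 (interval -0.34 to 0.32), in hypo+ males 0.30 (interval 0.01 to 0.59, adjusted p = 0.654) and in hypo+ females -0.06 (interval -0.44 to 0.31). The difference of the sexes in the hypo response was -0.36 (females minus males, SE 0.22, limma adjusted p = 1.00), with no probe called in that test and 422 with an unadjusted p below 0.05.

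Gls2 gave 0.32 in hypo males (interval -0.14 to 0.78) and -0.01 in hypo females (interval -0.34 to 0.32). Its male groups overlapped, with control pups at 4.41, 4.69, 5.07 and 5.36 and hypo pups at 4.96, 4.98, 5.35 and 5.52. Sds gave 0.07 in hypo males (interval -0.45 to 0.58) and -0.17 in hypo females (interval -0.53 to 0.18), and 0.30 in hypo+ against hypo females (interval -0.09 to 0.68). In each of the 8 groups the highest Sds value was that of the pup of the scan batch apart.

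**Figure D2:**
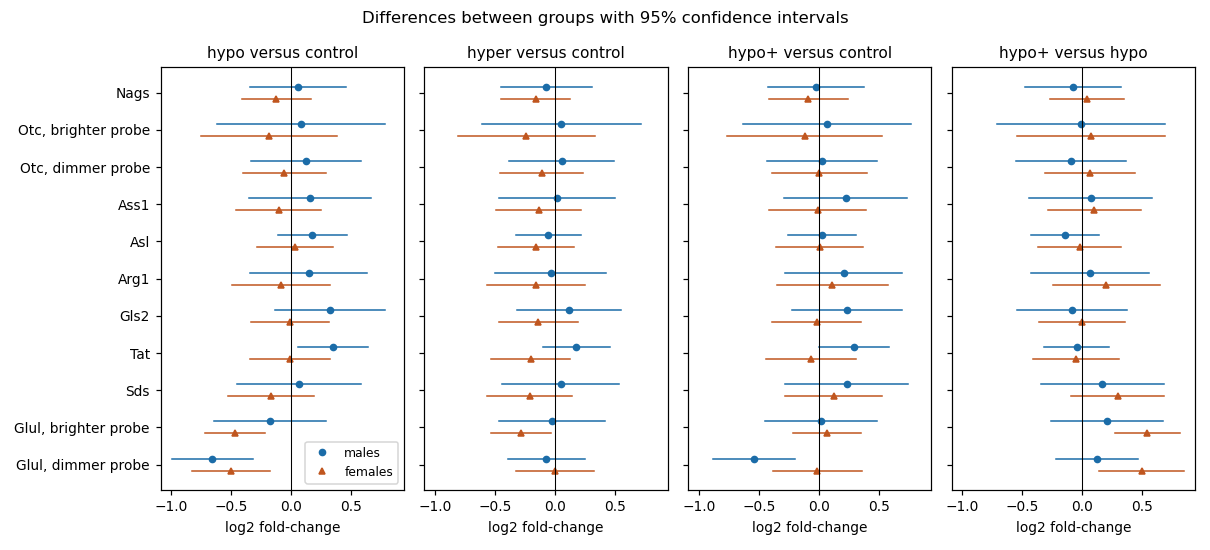
Log2 fold-change (x axis) of the 11 member probes in 4 comparisons, males as circles and females as triangles, with 95% confidence intervals from limma as lines. The intervals that lie clear of 0 belong to Glul and, in males, to Tat, and the widest are those of the brighter Otc probe, for example -0.62 to 0.78 in hypo males.

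The median log2 fold-change over the 11 probes was 0.12 in hypo males, where 9 of 11 were above 0, and -0.11 in hypo females, where 10 of 11 were below. It was 0.01 in hyper males and -0.16 in hyper females, where 11 of 11 were below 0. The medians over all probes were between -0.01 and 0.00 in these comparisons. The 9 probes other than Glul varied together from array to array, as given below, so that the 11 signs are not separate observations.

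Over the 4 treatments, the difference of females minus males ranged from -0.05 for Ass1 to 0.28 for the dimmer Glul probe (SE 0.08, interval 0.11 to 0.45, limma adjusted p = 0.327). None of the 11 probes passed, against 0.0996% of all probes. In the tests of whether a treatment acted differently in the sexes, 0 of 11 member probes and 0 of 41174 probes passed for hypo, hyper and hypo+, with 422, 519 and 546 probes (1.02%, 1.26% and 1.33%) at an unadjusted p below 0.05. Of the members, 0, 0 and 1 were among these, and 1 in females against males (9.37%).

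Apart from Glul, the members shared most of their variation between pups of a group. Over the 34 arrays, after the mean of each group was taken off, the 36 pairs among the other 9 probes had a median Pearson r of 0.83 (range 0.58 to 0.92). The dimmer Glul probe had a median r of 0.16 with those 9 (range 0.04 to 0.51) and the brighter 0.44 (range 0.27 to 0.54), and the 2 Glul probes had an r of 0.54 with each other. These arrays share slides, scan batches and a reference RNA, and the r is a description.

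On the arrays of the scan batch apart, Arg1, Ass1, Gls2, Nags, Sds and both Otc probes were the highest of their group in 8 of 8 groups, Tat in 7, Asl in 5, and the Glul probes in 4 and 3. Of all probes, 1.57% were highest in 8 of 8 groups. The median excess over the rest of the group was 0.85 for the brighter Otc probe, 0.61 for Arg1, 0.57 for Sds and 0.13 and 0.16 for Glul, against 1.12 for Alb and 0.56 for Apoc3 among the hepatocyte markers. The r with the hepatocyte marker mean within groups was 0.95 for Arg1, 0.93 for Sds and 0.20 for the dimmer Glul probe. Each group held 1 such array, which weighs more in the mean of a group of 3 pups than in that of a group of 5. The part of the scan batch in the spread of these genes was not tested.

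**Figure D3:**
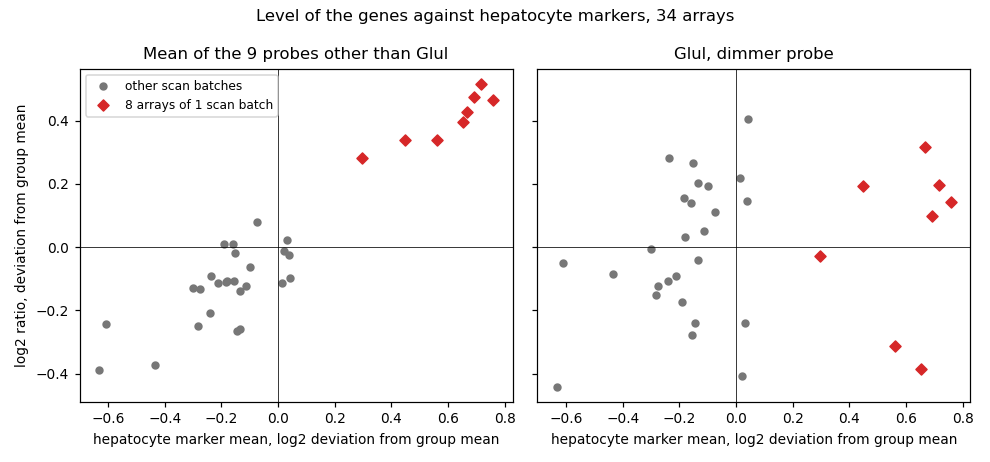
Deviation of each array from its group mean, for the mean of the 9 member probes other than Glul (left) and the dimmer Glul probe (right) on the y axis, against the deviation of the mean of 6 hepatocyte markers on the x axis, in log2 units. Diamonds are the 8 arrays of 1 scan batch. The 9 probes lie between 0.28 and 0.52 on those arrays and between -0.39 and 0.08 on the other 26, while the dimmer Glul probe spans -0.38 to 0.32 and -0.44 to 0.41.

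**Figure D4:**
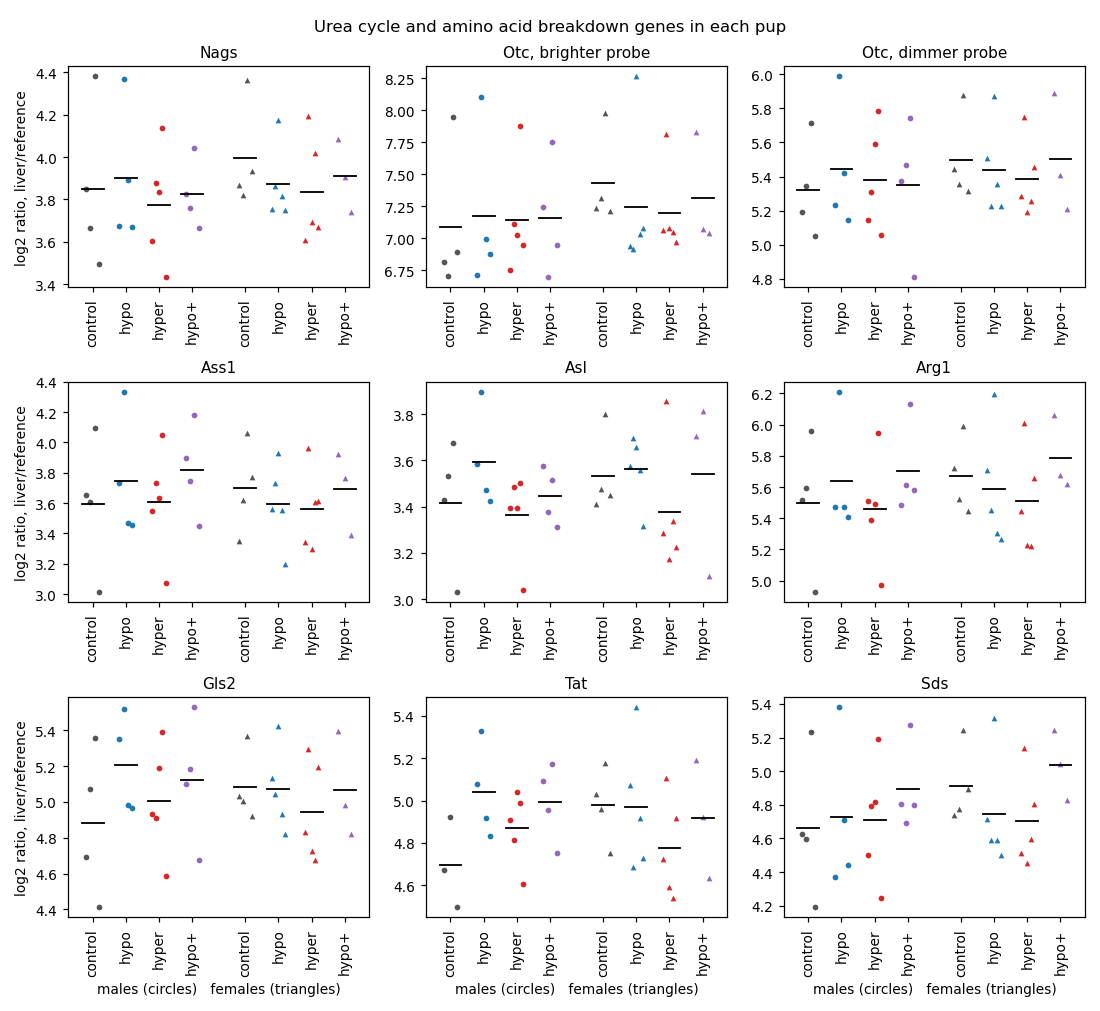
Log2 ratio of liver over reference RNA (y axis) in each pup for the 9 member probes other than Glul, by treatment, males as circles and females as triangles, with group means as lines. In most panels each group holds 1 high pup, for example 8.10 among hypo males and 8.26 among hypo females for the brighter Otc probe, and no group is clear of its control.

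The genes most like each member, of 22222 probes well above background on all arrays and by Pearson r of log2 ratios centred within sex over 34 arrays, were read for the brightest probe of each. They were Apoa2 (r = 0.97), Serpinc1 and Lect2 for Arg1, Ugt2b5 (0.97), Cyp2j5 and Maob for the brighter Otc probe, and Mettl7b (0.97), Ppara and Leap2 for Sds. Ass1 was most like Fah (0.92), Sardh and Fxyd1, and Nags most like Masp2 (0.90), Bhmt2 and Cyp4f14. Tat was most like Gls2 (0.89), itself a member, then Hgd and Tmprss6, and Gls2 most like F12 (0.91) and Dhrs3. Asl was most like Man2b1 (0.84), Mtarc2 and Ak3. The lowest of these leading values was that of Glul, with Serpina3k (0.76), Lsr and Cyp2a5. Centring within sex keeps the shift of the scan batch apart, and its part in these r was not tested.

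The neighbouring genes of the pathway were read from lists that hold the carriers and the enzymes of ammonia and glutamate handling (9 of 12 genes matched), further amino acid breakdown enzymes (41 of 45), amino acid transporters (8 of 9) and regulators (11 of 11). In hypo against control no gene of any of these lists was called in the fit of either sex alone. Of these genes, the fit of both sexes together is given below for Prodh and Cebpb only. It therefore does not set them apart from the others, Slc25a13 included. Slc25a13, the mitochondrial carrier that supplies aspartate to Ass1, was 0.27 higher in hypo males (SE 0.08, limma adjusted p = 0.504) and 0.30 higher in hypo females (SE 0.08, adjusted p = 0.374), with groups that did not overlap in either sex, as for 1.49% of all probes in males and 0.848% in females with hypo higher. Oat, ornithine aminotransferase, gave 0.68 (SE 0.19, adjusted p = 0.397) and 0.45 (SE 0.18, adjusted p = 0.832), and Gpt2, an alanine aminotransferase, gave -0.48 and -0.18. Oat, like Glul, is known from pericentral hepatocytes.

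Prodh, which starts the breakdown of proline, read 2.56, 2.62, 2.82 and 3.18 in control males and 0.75, 1.63, 1.88 and 2.17 in the hypo group. The difference, as a log2 fold-change, was -1.19 in hypo males (SE 0.41, limma adjusted p = 0.656). All hypo males lay below all controls, as for 1.6% of all probes with hypo lower. In hypo females the difference was -1.19 (SE 0.28, limma adjusted p = 0.146), and their values of 0.88 to 2.47 overlapped those of control females, 2.42 to 3.41. With both sexes in 1 fit Prodh was called, at -1.20 (SE 0.25, limma adjusted p = 0.00600), where 1.28% of all probes were. That fit had no litter block and took all pups as independent. The lowest hypo pups of each sex, male 723 (0.75) and female 721 (0.88), may be of 1 litter by their numbers. The part of litter in this call is not given here. Cth, which splits cystathionine, gave 0.51 and 0.35, and Csad, of taurine synthesis, -0.35 and -0.36. Of the 41 breakdown genes, 35 were above 0 in hypo males (median 0.15) and 16 in hypo females (median -0.04), and in hyper females 7 were above 0 (median -0.10). The hepatocyte markers moved with these counts, 6 of 6 being above 0 in hypo males (median 0.29), 1 of 6 in hypo females (median -0.10) and 1 of 6 in hyper females (median -0.15), and their part in the result was not tested.

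No pericentral or periportal gene of the lists was called in hypo pups. Of 10 pericentral genes, 5 were below 0 in hypo males and 8 among the females, and the others were above. Oat, which is on this list, was higher in hypo pups of both sexes, with the values given above. Cyp27a1 gave -0.53 (SE 0.19, limma adjusted p = 0.701) and -0.41 (SE 0.12, adjusted p = 0.416), and the ammonium transporter Rhbg -0.24 (SE 0.13) and -0.43 (SE 0.15, adjusted p = 0.624). Of 7 periportal genes, the males had 3 below 0 and the females 7. These were led by Cdh1 at -0.26 and -0.43, Cyp2f2 at -0.23 and -0.30 and Ctsc at -0.27 and -0.10. Among the transporters, Slc3a1 (-0.42 and -0.46), Slc6a12 (-0.18 and -0.36) and Slc7a2 (0.52 and 0.35) had the largest mean absolute values of their list.

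**Figure D5:**
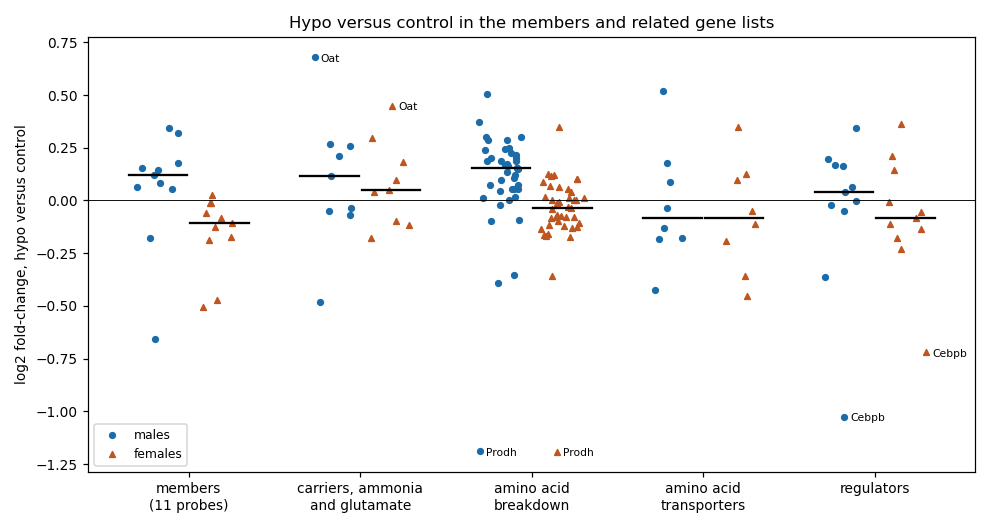
Log2 fold-change of hypo against control (y axis) for the 11 member probes and for the genes of 4 related lists, males as circles and females as triangles, each point 1 gene (for the members 1 probe) and lines the medians. Prodh at -1.19 in both sexes, Cebpb at -1.03 (-0.62 without control male 522) and -0.72 and Oat at 0.68 and 0.45 are named.

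In the fits of each sex alone, the regulators were the only list with calls, all of them in hypo+ against hypo. In that comparison 0.369% of all probes were called in males and 0.556% in females. Cebpb, a transcription factor of the acute and fasting responses of liver, rose in hypo+ males by 1.52 (SE 0.31, limma adjusted p = 0.0434) and in hypo+ females by 1.39 (SE 0.23, adjusted p = 0.00756) on 1 probe, and by 1.27 in females (SE 0.18, adjusted p = 0.00151) on another. In males the second probe gave 1.33 (SE 0.30, adjusted p = 0.0817). The male call of the first probe was made in 10 of 17 alternative settings and in 3 of 17 fits with 1 array left out, those without hypo+ male 546 or control males 832 or 522 (adjusted p from 0.00117 to 0.150), while in females both probes were called in 17 of 17 fits with 1 array left out. Here and for the regulators below, the alternative settings include fits of both sexes together, whose 1 value is counted for each sex.

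Against control, the first Cebpb probe gave -1.03 in hypo males (SE 0.31, limma adjusted p = 0.520) and -0.72 in hypo females (SE 0.21, adjusted p = 0.411). Control male 522, 1 of the arrays with acinar RNA, read 1.42 and the other control males -0.55, -0.14 and 0.06, beside -1.27, -0.94, -0.60 and -0.49 in hypo males. Without that pup the male difference was -0.62 (SE 0.21, limma adjusted p = 0.836). The female difference was -0.48 without control female 523 (adjusted p = 1.00), and -0.91 without hypo female 721, the only array left out with which it was called (limma adjusted p = 0.0466). In fits without 1 hyper pup, the second probe gave -0.92 in hypo males and -0.60 in hypo females. It gave -0.51 without control male 522 and -0.37 without control female 523 (limma adjusted p = 0.907 and 0.524). With no array left out in turn was the second probe called in hypo against control. With both sexes in 1 fit, control male 522 included, the first probe was called at -0.87 (SE 0.19, limma adjusted p = 0.00953), where 1.28% of all probes were. That fit had no litter block and took all pups as independent. The highest controls of each sex, male 522 (1.42) and female 523 (0.75), may be of 1 litter by their numbers. The part of litter in this call is not given here.

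Nr3c1, the glucocorticoid receptor, rose in hypo+ against hypo males by 0.43 (SE 0.09, limma adjusted p = 0.0401). That call was made in 8 of 17 alternative settings, where the difference was 0.18 to 0.64, and in 6 of 17 fits with 1 array left out (adjusted p from 0.0205 to 0.138). Onecut1, a hepatocyte factor, fell in hypo+ against hypo females by 0.73 (SE 0.15, limma adjusted p = 0.0409). It was called in 12 of 17 settings, with differences of -1.47 to -0.35, and in 6 of 17 fits with 1 array left out (adjusted p from 0.0133 to 0.247). No gene of the carrier, breakdown or transporter lists was called in that comparison.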

How the data were processed

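The members and the gene lists were chosen with earlier results of these data known. Per the labels and the deposited headers, each array is an Agilent two-colour array of 1 pup liver (Cy5) against universal mouse reference RNA (Cy3), and the authors deposited scanner files with median spot intensity and the scanner software's log10 ratio, already background-subtracted and dye-normalized. The authors' deposited log2 values, loess-normalized by the methods, were used as an alternative. Arrays that the methods set aside are not analysed here.

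From the median intensity, log2 ratios of Cy5 over Cy3 were loess-normalized within each array, control spots were removed, spots marked as outliers were left out and the spots of a probe were averaged, giving 41174 probes from 43379 spots. Of 33541 accessions, 16806 matched a gene in the RefSeq table. The 4 groups of a sex were fitted together (limma 3.58.1, R 4.3.3), with Benjamini-Hochberg adjustment over all probes and a threshold of 0.05. This test stands in for the permuted F statistic of the methods. Sex differences and interactions came from 1 fit of 34 arrays. Each pup is 1 replicate, the pup numbers may mark shared litters, and the number of arrays limits the precision. All member probes are named. Of the lists, genes called in any comparison are named, or otherwise the 3 with the largest mean absolute log2 fold-change over both sexes in hypo pups. Other settings of the processing and the model were tried, 4 of them chosen after the data were seen, and each array was also left out in turn. The fitting steps were tested on simulated data. One gene among those most like a member is not reported here.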

Additional observations from a re-analysis of the deposited data

Results flagged for a closer look

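In 76 sets of values, 1 probe in 1 group of 4 or 5 pups, 11 held a pup whose gap to its nearest neighbour was large for the range of the group (Dixon's test at the 95% level), where chance gives about 1 in 20, or 3.8. The sets share arrays and the probes other than Glul varied together, so the 76 are not separate observations. No such count over all probes is given here. Of the 11, 9 were pups of the scan batch apart. The brighter Otc probe was high in control male 832 (7.95), control female 831 (7.98), hyper female 585 (7.81) and hypo female 721 (8.26). Hypo female 721 was also high for Nags (4.17) and Sds (5.32). Asl was high in control female 831 (3.80) and hyper female 585 (3.85), and Arg1 in hypo male 576 (6.21). The 2 from other scan batches were both low, Asl in hyper male 864 (3.04) and the dimmer Glul probe in control male 881 (2.29).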

How the results depend on the processing

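With the 4 groups of a sex fitted together and no block, no member was called in the 8 comparisons, so no call could be lost. The count of members called rose from 0 to 1 in hypo against control for males with both sexes in 1 fit (1), with litter as a random block (1) and with slide as a fixed block (1), and for females under the same 3 fits and with slide as a fixed block in that sex (1), each time through the dimmer Glul probe. In hypo+ against hypo it rose to 1 with both sexes and slide as a fixed block, in males and females, through Asl. Leaving out each array in turn gave counts of 0 to 1 in hypo+ against hypo females, where the brighter Glul probe was called without hyper female 585 (0.54, limma adjusted p = 0.0401, and 0.0401 to 0.264 over the arrays left out), and 0 in the other comparisons. The joint fits hold 1 value for both sexes, and the joint fit with slide was chosen after the data were seen. The cause of these changes was not tested. Counts of all probes called in hypo males ranged from 5 to 42 and in hypo females from 30 to 99 over the arrays left out. No paired analysis was possible because animal numbers name single pups and no number is shared between groups, while matching by slide, scan batch and litter entered as blocks. With 3 to 5 pups a group, the 95% intervals above bound what these arrays could show.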

Other observations

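The 6 neutrophil and granulocyte markers (S100a8, S100a9, Ngp, Camp, Mpo and Ltf) were all lower in hypo+ than in hypo males, with a median log2 fold-change of -0.47, and 5 of 6 were lower in females, with a median of -0.54. They were higher in hypo than in control pups in 6 of 6 genes in males (median 0.18) and 5 of 6 in females (median 0.37), and in hyper females in 5 of 6 (median 0.34). None of them was called by limma in these comparisons. The same pups carried the higher Glul values of hypo+ females and the Cebpb calls, and the part of these markers in those results was not tested. The erythroid, Kupffer, endothelial, stellate and bile duct marker lists had median values between -0.17 and 0.17 in the 8 comparisons, and none of their genes was called.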
